A study of Neurospora crassa with 94 samples.

Results

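The genes described here are 34 putative chromatin enzymes of Neurospora crassa, a filamentous fungus, other than the proteins that the study deleted. They were taken by symbol, with names built from crf, set, hda, nst or hat and a number, out of 10397 genes in the RNA tables. The symbols matching this pattern numbered 37, and crf4-1 (isw), crf4-2 (acf) and set-7 were left out because the study deleted them. The 34 genes comprise 10 ATP-dependent remodelers (crf), 8 SET-domain genes (set), 4 classical histone deacetylases (hda), 7 sirtuin deacetylases (nst) and 5 acetyltransferases (hat). Every one of the 34 was named by its symbol in the tables. The naming rule uses no measured value.

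The series asked how loss of ISWI, of proteins that work with it and of the PRC2 methyltransferase SET-7 alters chromatin and gene repression. RNA-seq covered 41 of 94 samples, and the other 53 were not analysed here. The libraries were prepared in 3 series, called 111, 112 and 118 here (118 is batch 4 in the sample titles). Series 111 held wild type (WT) and strains deleted for acf, iaf-1 or iaf-2. Series 112 held WT, the set-7 deletion, the acf deletion and a triple deletion of acf, iaf-1 and iaf-2. Series 118 held WT, the isw deletion, the double deletions acf iaf-1, acf iaf-2 and iaf-1 iaf-2, and the triple deletion. Each of the 14 groups had 3 libraries, except iaf-1 iaf-2 with 2. All were labelled as mycelial cultures kept under constant light, and the labels gave no age, strain background or mating type. The labels do not say whether replicates came from separate cultures, so the spread that p-values measure may be technical.

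The targeted genes checked the labels only in part. Levels of iaf-2, and of iaf-1 in the double mutants, are not given, so those labels are not checked here. The isw gene stood at 1.80 to 2.63 TPM (a level scaled for gene length and library total) in isw libraries against 30.1 to 36.6 TPM in WT, and iaf-1 had 0 reads in the 3 iaf-1 libraries of series 111. In the triple mutant iaf-1 stood at 0.233 to 1.93 CPM in series 112 and 0.0552 to 0.162 TPM in series 118. The acf gene itself had more reads in acf-labelled libraries than in WT, at 212 to 221 CPM in series 111 against 39.3 to 41.0 CPM in WT (CPM, read counts relative to library totals after TMM scaling). Reads on set-7 were 4.04 to 4.77 CPM in the libraries labelled set-7 against 5.90 to 8.35 CPM in WT. Which part of acf or set-7 was deleted is not stated in the labels, so these reads do not check them, and all genotypes are named below as labelled. Depth ranged from 5332503 to 9021398 reads a library in series 111, from 5652592 to 22582163 in series 112 and from 11707954 to 21962285 in series 118. In each group of series 111, 1 pair of libraries was nearly identical (chi-square per degree of freedom 1.48 to 1.84, where counting noise gives about 1). The 2 iaf-1 iaf-2 libraries differed most, with a value of 117.2.

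Remodelers of this class use ATP hydrolysis to slide, space, evict or exchange nucleosomes. SET-domain proteins transfer methyl groups to lysines, mostly on histones, while acetyltransferases add and deacetylases remove acetyl groups. Sirtuins are the deacetylases that consume NAD, and the first of them described in yeast, Sir2, silences telomeric chromatin. In Neurospora, SET-1 methylates histone H3 lysine 4, SET-2 methylates H3 lysine 36, SET-3 is the ASH1 methyltransferase of H3 lysine 36, HDA-1 is the catalytic subunit of the HCHC silencing complex with HP1, and NST-1 takes part in telomeric silencing.

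In WT of series 118, where TPM allows levels of different genes to be compared, the members had a median level of 17.95 TPM, beside 17.0 TPM for all genes. The 3 highest were nst-5, crf4-3 and hda-1. nst-5 stood at 54.1, 59.0 and 66.1 TPM, crf4-3 at 49.9, 54.5 and 66.7 TPM, and hda-1 at 50.4, 50.9 and 59.4 TPM. These 3 overlapped one another, and the lowest hda-1 library lay above every library of hat-4, the next in order. The 3 lowest were crf10-1, set-5 and set-2, the last at 2.13 to 2.90 TPM. The mean of nst-5 was 24.3 times that of set-2. Over the whole order, 29 of 33 neighbouring pairs had overlapping libraries, so most single steps in it were within the spread. Each of the classes reached from a low of 2.46 to 6.36 TPM to a high of 41.5 to 59.8 TPM.

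**Figure D1:**
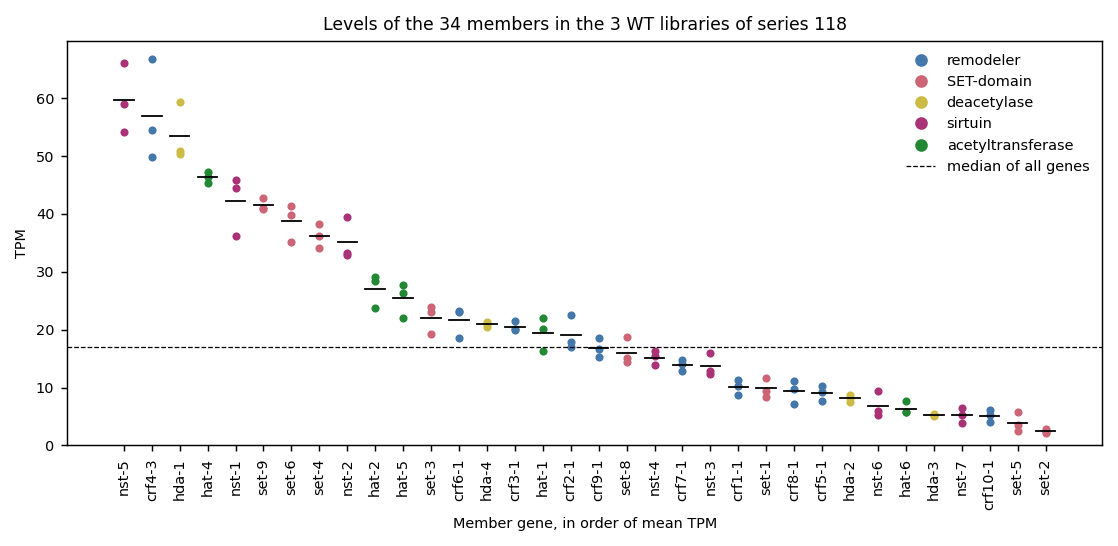
Each point is the TPM of a member in 1 of the 3 WT libraries of series 118, the short bar is the mean, and colours mark the role. The members spread on both sides of the dashed median of all genes (17.0 TPM), from nst-5 at the top to set-2 at the bottom.

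Over the 11 comparisons of a mutant with WT of its own series, 3 members (crf1-1, crf8-1 and hat-4) were called in none. A further 10 were called only higher, 11 only lower and 10 in both directions, depending on the genotype or the library series. No such tally was made over all genes. From 14.1% (set-7) to 66.0% (acf of series 111) of all genes were called in a comparison, so these counts do not mark the members out. A call is an adjusted p under 0.05 (Benjamini-Hochberg over all genes tested, edgeR's quasi-likelihood test on counts in series 111 and 112, limma on log2(TPM + 1) in series 118). The most often called were nst-7, higher in 9 comparisons, set-5, higher in 7 of 8 in which it could be tested, and set-9, lower in 7. Against WT of series 118, isw libraries had 9 members higher and 7 lower of 34, or 47.1%, where 48.3% of all genes were called, 29.0% higher and 19.3% lower. The triple mutant had 9 higher and 5 lower in series 118 (background 51.1%, 29.8% higher and 21.3% lower) and 4 higher and 10 lower in series 112 (background 54.9%, 28.6% higher and 26.3% lower). The double mutants had fewer: acf iaf-1 had 2 higher and 5 lower (background 31.6%, 17.7% higher and 13.9% lower), acf iaf-2 had 3 higher and 1 lower (background 24.7%, 19.5% higher and 5.16% lower), and iaf-1 iaf-2 had 5 higher and 1 lower (background 21.5%, 14.0% higher and 7.50% lower). With median-ratio scaling, acf iaf-2 had 3 higher and 3 lower (17.65%, all genes 25.8%).

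The single mutants in the count series ran from 19 calls to 1. Libraries labelled acf had 9 members higher and 10 lower of 33 in series 111 (background 66.0%, 31.6% higher and 34.4% lower), and 2 higher and 8 lower of 34 in series 112 (background 27.2%, 15.2% higher and 12.0% lower). Libraries labelled set-7 had 2 higher and 3 lower (background 14.1%, 7.40% higher and 6.72% lower). The iaf-1 deletion had 2 higher and 3 lower of 33 (background 28.8%, 15.9% higher and 13.0% lower), and the iaf-2 deletion had 0 higher and 1 lower (background 19.6%, 10.1% higher and 9.48% lower). When the nearly identical libraries of series 111 were summed and counted once, iaf-1 and iaf-2 each had 0 members called (all genes 5.86% and 0.0493%). The acf count stayed at 19, but its share was then above the background, at 55.9% of members and 50.55% of all genes. In the main fits, the share of members called was below or near the background in each of the 11 comparisons. Without WT replicate 3 of series 112 it was above it, at 11 of 34 members (32.4%, all genes 17.8%) in set-7 and 13 of 34 (38.2%, all genes 27.7%) in acf. Without WT replicate 1 of series 118 it was 52.9% in isw (all genes 45.7%). Some other settings also put it above, among them median-ratio scaling in isw (55.9%, all genes 51%). Further examples were DESeq2 in acf of series 111 (58.8%, all genes 55.6%) and a replicate block in acf of series 112 (32.35%, all genes 26%). Many other settings left it below or near the background. With all libraries, the members' median log2 fold change was 0.21 in isw (0.08 for all genes tested), 0.11 in the triple mutant of series 118 (0.05), -0.05 in that of series 112 (0.00), -0.27 in acf of series 112 (0.01) and -0.26 in set-7 (0.00), the last 2 sharing their WT libraries. In the other 6 comparisons it lay between -0.10 and 0.10.

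**Figure D2:**
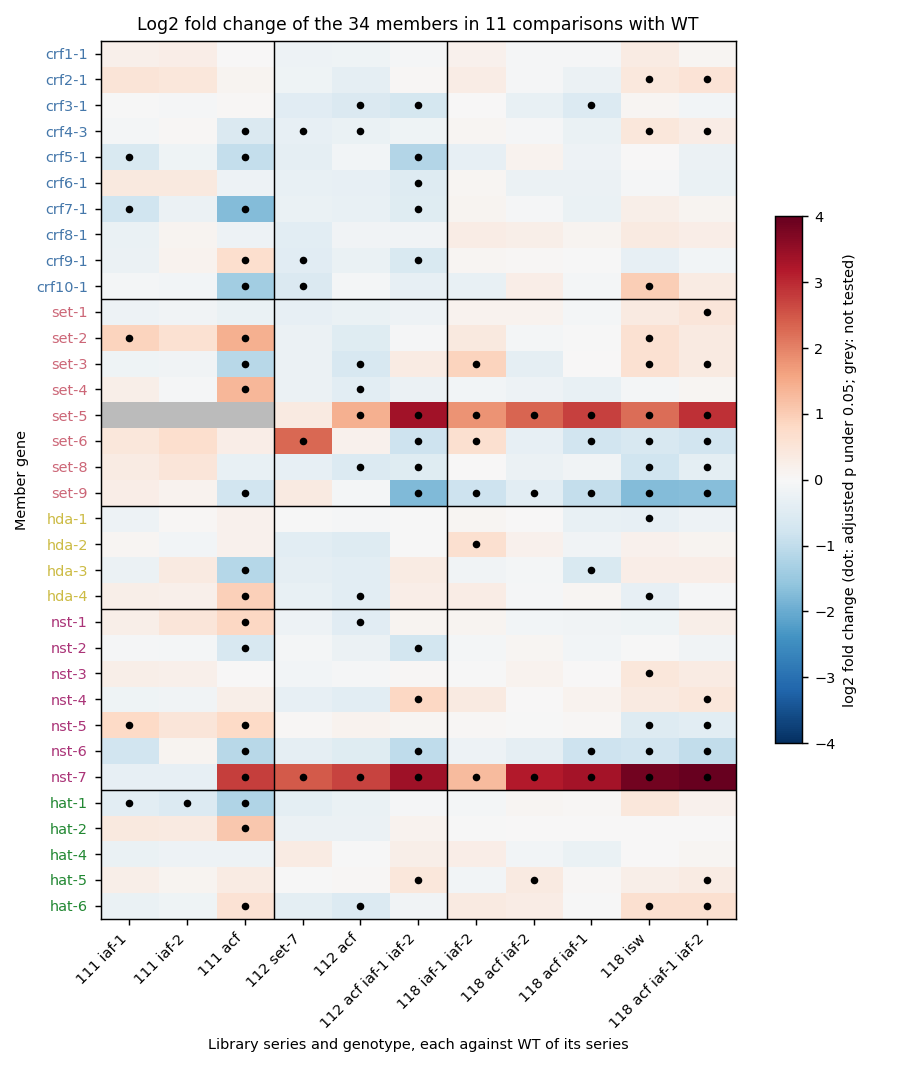
Rows are the 34 members, grouped and coloured by role, and columns are the 11 comparisons with WT, by library series. Colour gives the log2 fold change, a dot marks an adjusted p under 0.05, and grey marks set-5 in series 111, which had too few reads to test. The rows of nst-7 and set-5 are raised in most columns and that of set-9 is lowered, while set-6 stands out in set-7.

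Markers of other developmental states moved with some genotypes and are given here as values. The labels call the cultures mycelial, and the list of 8 sexual development genes summed to 330 to 427 TPM in WT of series 118, 29200 to 35980 TPM in isw and 9230 to 19230 TPM in the triple mutant. Of the 8, 5 were called higher in each of these mutants, the pheromone precursor gene mfa-1 made up most of the sum, and ccg-4, the pheromone precursor gene of the opposite mating type, had 0 reads in WT. ccg-4 stood at 19.4 to 27.3 TPM in acf iaf-1 and at no more than 0.396 TPM in any other library of the series. In series 112 the same list summed to 541 to 718 CPM in WT, 896 to 1060 CPM in acf and 11430 to 12410 CPM in the triple mutant. Of 7 tested there, 4 were called higher in acf and 6 in the triple mutant (all genes 15.2% and 28.6%). The 7 conidiation genes, which mark asexual spore formation, summed to 113 to 225 CPM in WT of series 111 and to 960 to 1017 CPM in the libraries labelled acf, with con-13 at 0 reads in WT. Of the 5 that could be tested there, 3 were called higher and 1 lower in acf, so the sum does not stand for each gene. In series 112 their sums overlapped, at 600 to 1110 CPM in WT and 650 to 922 CPM in acf, with 1 called higher and 1 lower of 6 tested. In isw of series 118, 2 were called higher and 3 lower of 6 tested. The part of these states in the values below was not tested, and in bulk RNA a change in the share of a cell type cannot be told apart from a change in RNA per cell.

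Among the sirtuins, nst-7 (NCU07624, chromosome IV) rose in 9 of the 11 comparisons, all except those of iaf-1 and iaf-2, and in each of the 9 except iaf-1 iaf-2 its rise was the largest of the members. In WT of series 118 it stood at 3.89, 5.21 and 6.49 TPM, in isw at 87.3, 79.4 and 95.2 TPM, and in the triple mutant at 89.6, 98.2 and 111 TPM. All mutant libraries lay far above WT, and isw and the triple mutant overlapped each other. The log2 fold change was 3.85 ± 0.15 (SE) in isw (limma adjusted p = 5.885e-13) and 4.04 ± 0.15 in the triple mutant (limma adjusted p = 3.05e-13). nst-7 was lower in the double mutants than in the triple mutant. It stood at 62.1, 62.3 and 58.5 TPM in acf iaf-1 and at 56.5, 45.5 and 63.0 TPM in acf iaf-2, and both iaf-1 iaf-2 libraries stood at 13.6 TPM. The iaf-1 iaf-2 libraries lay between WT and all the others, with a log2 fold change of 1.26 ± 0.16 (limma adjusted p = 2.31e-05).

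The count series gave nst-7 the same direction. In series 112 WT stood at 7.13, 5.00 and 5.24 CPM, set-7 at 33.0, 29.7 and 32.2 CPM, acf at 34.9, 41.8 and 36.1 CPM and the triple mutant at 61.1, 51.4 and 66.9 CPM. No mutant library overlapped WT, and the triple mutant lay above acf and set-7. The log2 fold change was 2.46 ± 0.16 in set-7 (edgeR adjusted p = 6.04e-08), 2.72 ± 0.16 in acf (edgeR adjusted p = 6.67e-09) and 3.38 ± 0.16 in the triple mutant (edgeR adjusted p = 1.56e-10). In series 111, libraries labelled acf stood at 66.2, 69.0 and 47.0 CPM against 10.7, 6.36 and 9.51 CPM in WT (log2 fold change 2.77 ± 0.20, edgeR adjusted p = 3.1e-07). The iaf-1 libraries (6.58, 7.26 and 7.58 CPM) and iaf-2 libraries (7.77, 6.10 and 7.31 CPM) lay within or near the range of WT and were not called.

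nst-6 was the sirtuin that fell most often, in 5 comparisons. In series 118 it stood at 5.99, 9.35 and 5.23 TPM in WT, 4.83, 2.14 and 4.10 TPM in isw, 4.14, 2.93 and 2.94 TPM in acf iaf-1 and 2.77, 2.37 and 3.63 TPM in the triple mutant. Every one of these mutant libraries lay below WT. The log2 fold change was -0.98 ± 0.23 in the triple mutant (limma adjusted p = 0.00227), -0.83 ± 0.23 in acf iaf-1 (limma adjusted p = 0.0121) and -0.76 ± 0.23 in isw (limma adjusted p = 0.0132). In series 112 the triple mutant (1.93, 0.979 and 2.10 CPM) overlapped WT (1.6, 4.29 and 4.12 CPM), with a log2 fold change of -1.02 ± 0.40 (edgeR adjusted p = 0.0393). In series 111 acf held 5, 4 and 5 reads against 14, 12 and 13 in WT (-1.12 ± 0.37, edgeR adjusted p = 0.0165), a call lost without acf replicate 2 (-1.27 to -0.95 over single omissions) and with DESeq2. The isw call was lost without WT replicate 2 or isw replicate 2, with the log2 fold change between -0.94 and -0.49 over all single omissions, and the acf iaf-1 call without WT replicate 2 (-0.98 to -0.62). The call of the triple mutant of series 112 was lost without WT replicate 2 or 3 or mutant replicate 1 or 2 (-1.34 to -0.77), with a replicate block and with only WT and the mutant in the fit.

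nst-5, the member with the highest WT level in series 118, was lower in 2 mutants of that series and higher in 2 of series 111. In series 118 it stood at 66.1, 59.0 and 54.1 TPM in WT, 40.3, 40.7 and 42.3 TPM in isw and 43.4, 41.2 and 48.6 TPM in the triple mutant. Both mutants lay below WT without overlap, by a log2 fold change of -0.52 ± 0.13 in isw (limma adjusted p = 0.00385) and -0.42 ± 0.13 in the triple mutant (limma adjusted p = 0.0157). The triple mutant's call was lost without WT replicate 1 or mutant replicate 2 (log2 fold change -0.49 to -0.34 over single omissions). In series 111 nst-5 rose, from 29.5, 46.5 and 30.8 CPM in WT to 64.8, 61.8 and 60.1 CPM in iaf-1 and 59.4, 57.4 and 69.5 CPM in acf. Neither mutant overlapped WT, and the log2 fold change was 0.81 ± 0.17 in both (edgeR adjusted p = 0.00402 in iaf-1 and 0.00108 in acf). The iaf-1 call was lost with the nearly identical libraries summed. In acf of series 112 nst-5 was not called. The acf effect there minus that in series 111 was -0.77 ± 0.25 (edgeR interaction, adjusted p = 0.0209), a call lost in 4 of 12 single omissions. The falls and rises came from different series, so genotype and library series cannot be told apart here. nst-4 rose in the triple mutant in both series, with a log2 fold change of 0.84 ± 0.16 in series 112 (edgeR adjusted p = 0.000383) and 0.46 ± 0.16 in series 118 (limma adjusted p = 0.0245). The second call was lost without WT replicate 3 or mutant replicate 3 (log2 fold change 0.39 to 0.51 over single omissions).

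Of the SET-domain genes, set-5 (NCU06119, chromosome VII) rose most. It stood at 3.48, 5.81 and 2.42 TPM in WT of series 118, at 18.0, 20.0 and 25.6 TPM in isw, at 26.9, 35.7 and 29.2 TPM in acf iaf-1, at 25.0, 18.7 and 24.1 TPM in acf iaf-2, at 18.5 and 12.5 TPM in iaf-1 iaf-2 and at 31.0, 36.8 and 36.5 TPM in the triple mutant. No mutant library overlapped WT. The log2 fold change was 2.92 ± 0.22 in the triple mutant (limma adjusted p = 5.45e-09), 2.74 ± 0.22 in acf iaf-1, 2.31 ± 0.22 in acf iaf-2, 2.22 ± 0.22 in isw and 1.78 ± 0.24 in iaf-1 iaf-2 (limma adjusted p = 3.67e-05). In series 112 set-5 stood at 3.32, 1.56 and 2.90 CPM in WT, 6.77, 5.91 and 7.45 CPM in acf and 26.8, 25.8 and 24.1 CPM in the triple mutant. The 3 groups did not overlap, and the log2 fold change was 1.42 ± 0.27 in acf (edgeR adjusted p = 0.00114) and 3.35 ± 0.26 in the triple mutant (edgeR adjusted p = 3.75e-08). Libraries labelled set-7 (4.04, 3.81 and 2.28 CPM) overlapped WT and were not called, and set-7 lay below acf in a direct comparison (log2 difference -1.07 ± 0.25, edgeR adjusted p = 0.00648). In series 111 the WT libraries held 3, 1 and 1 reads, so set-5 was not tested there. The acf libraries of that series held 2, 12 and 10 reads.

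set-9 (NCU08733, chromosome II) fell most. In series 118 it stood at 42.7, 40.8 and 41.0 TPM in WT, 11.7, 11.6 and 11.8 TPM in isw and 12.4, 13.1 and 10.6 TPM in the triple mutant. The double mutants lay between these, at 21.4, 19.9 and 22.0 TPM in acf iaf-1, 31.3, 32.2 and 28.7 TPM in acf iaf-2 and 23.7 and 22.5 TPM in iaf-1 iaf-2. No library of acf iaf-2 overlapped another group, and isw and the triple mutant overlapped only each other. The log2 fold change was -1.74 ± 0.10 in isw (limma adjusted p = 1.26e-10), -1.71 ± 0.10 in the triple mutant (limma adjusted p = 1.58e-10), -0.94 ± 0.10 in acf iaf-1, -0.82 ± 0.11 in iaf-1 iaf-2 and -0.42 ± 0.10 in acf iaf-2 (limma adjusted p = 0.00362). In series 112 the triple mutant (9.27, 13.3 and 11.5 CPM) lay below WT (47.7, 26.1 and 41.8 CPM) with a log2 fold change of -1.76 ± 0.24 (edgeR adjusted p = 2.66e-05). Libraries labelled acf (42.5, 33.2 and 33.3 CPM) and set-7 (56.3, 56.5 and 37.3 CPM) overlapped WT and were not called. In series 111 acf stood at 9.29, 7.98 and 10.1 CPM against 13.8, 18.1 and 14.7 CPM in WT (log2 fold change -0.76 ± 0.16, edgeR adjusted p = 0.00101), without overlap.

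set-6 (NCU09495), the last annotated gene at its end of chromosome II, went opposite ways in different mutants. Libraries labelled set-7 stood at 154, 153 and 134 CPM against 30.4, 26.0 and 33.9 CPM in WT, a log2 fold change of 2.29 ± 0.12 (edgeR adjusted p = 1.07e-08). The acf libraries of the same series (35.3, 33.8 and 31.3 CPM) overlapped WT, and the triple mutant (16.2, 15.8 and 19.5 CPM) lay below it with a log2 fold change of -0.81 ± 0.13 (edgeR adjusted p = 6.59e-05). In series 118 set-6 fell from 35.2, 41.4 and 39.8 TPM in WT to 23.5, 23.2 and 27.1 TPM in isw (log2 fold change -0.64 ± 0.14, limma adjusted p = 0.00126), to 22.2, 24.6 and 20.6 TPM in acf iaf-1 (-0.76 ± 0.14, limma adjusted p = 0.000523) and to 26.8, 23.3 and 17.6 TPM in the triple mutant (-0.77 ± 0.14, limma adjusted p = 0.000226). None of these overlapped WT. In iaf-1 iaf-2 it stood at 54.5 and 66.6 TPM, above WT (log2 fold change 0.63 ± 0.16, limma adjusted p = 0.00892), and that call was lost without replicate 2 of the mutant, with a log2 fold change of 0.49. The acf iaf-2 libraries (30.04, 27.4 and 33.7 TPM) lay below WT but were not called.

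**Figure D3:**
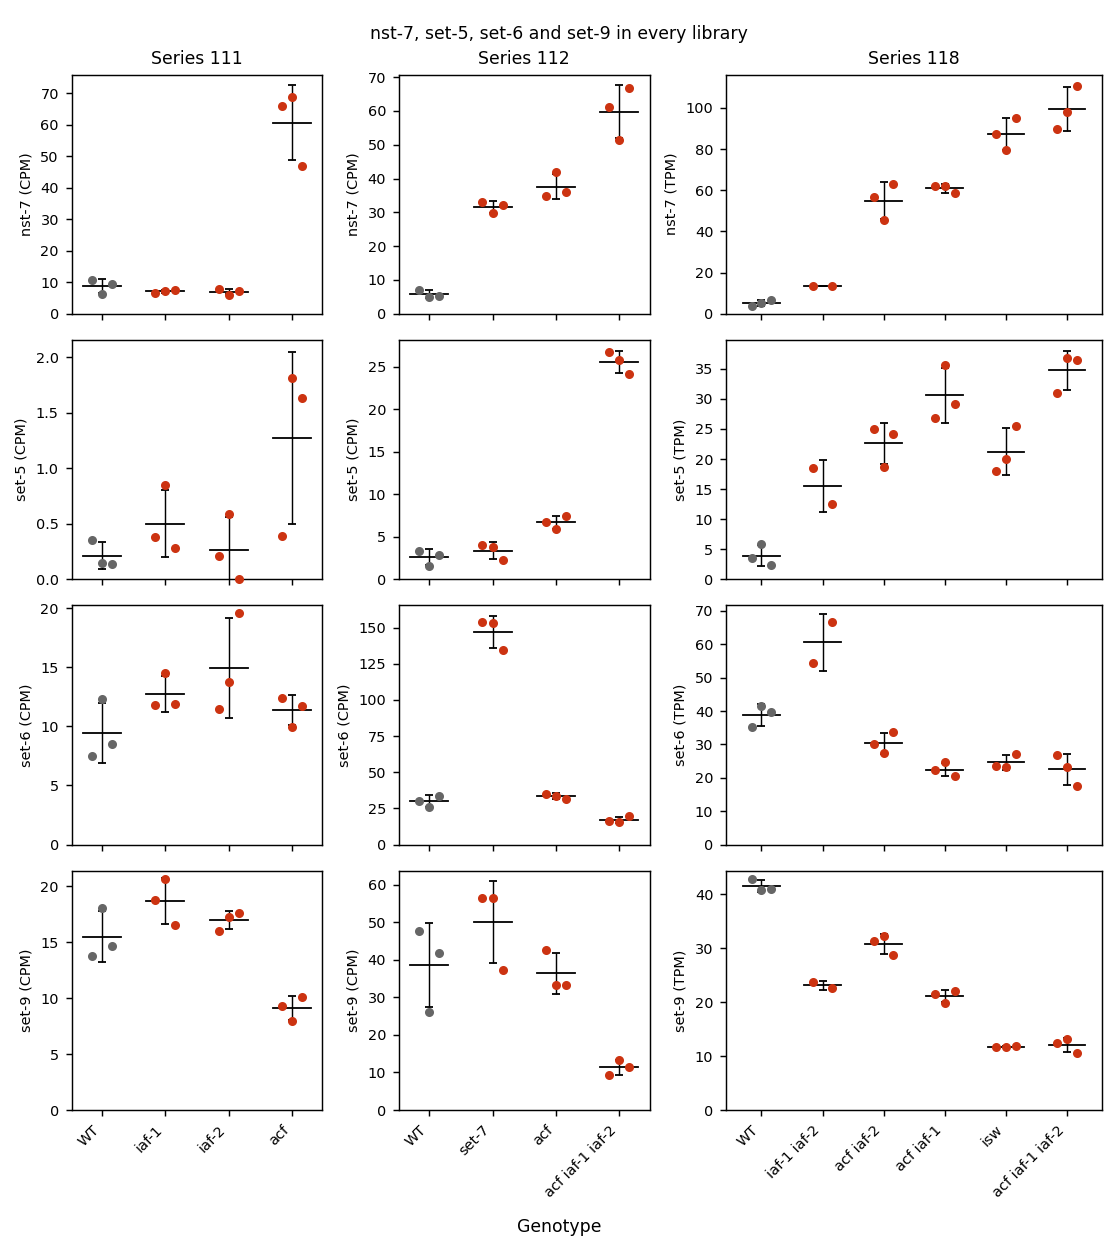
Points are single libraries, grey for WT and red for mutants, with the mean as a bar and 1 SD as an error bar. The y axes start at 0 and give CPM in series 111 and 112 and TPM in series 118, so levels compare only within a panel. nst-7 and set-5 have their highest means in the triple mutant in series 112 and 118, set-6 peaks in set-7, and set-9 falls to 10.6 to 13.1 TPM in isw and the triple mutant.

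The remaining SET-domain genes moved less. set-8 fell in isw, from 14.3, 18.7 and 15.0 TPM in WT to 7.46, 9.86 and 8.83 TPM without overlap (log2 fold change -0.81 ± 0.15, limma adjusted p = 0.000197), and it was also called lower in acf of series 112 (-0.56 ± 0.13) and in the triple mutant of series 112 (-0.49 ± 0.14) and 118 (-0.39 ± 0.15). The last of these was lost without WT replicate 2 or mutant replicate 1 or 3 (-0.46 to -0.28 over single omissions). set-3, the ASH1 gene, stood at 23.9, 23.0 and 19.3 TPM in WT, 28.8, 37.6 and 36.05 TPM in isw and 36.6 and 48.3 TPM in iaf-1 iaf-2, above WT in each library, with log2 fold changes of 0.60 ± 0.15 (limma adjusted p = 0.0025) and 0.90 ± 0.16 (limma adjusted p = 0.00068). In libraries labelled acf it fell in both count series, to 53.0, 43.1 and 37.7 CPM from 104, 78.4 and 107 CPM in series 111 (log2 fold change -1.12 ± 0.16) and to 25.6, 24.9 and 27.8 CPM from 36.01, 49.2 and 35.8 CPM in series 112 (-0.63 ± 0.14). set-2 rose from 2.90, 2.13 and 2.36 TPM to 4.65, 4.10 and 4.06 TPM in isw, without overlap (log2 fold change 0.61 ± 0.21, limma adjusted p = 0.0247). Without WT replicate 2 or 3 or isw replicate 1 that call was lost (0.54 to 0.70 over single omissions). In series 111 set-2 rose from 24.9, 15.9 and 30.9 CPM in WT to 38.3, 51.2 and 44.4 CPM in iaf-1 (log2 fold change 0.90 ± 0.23, edgeR adjusted p = 0.0133) and to 71.8, 62.5 and 58.8 CPM in acf (1.43 ± 0.24, edgeR adjusted p = 0.000181), both without overlap. The iaf-1 call was lost without iaf-1 replicate 2 (0.69 to 1.11 over single omissions) and with the nearly identical libraries summed. set-1 rose in the triple mutant of series 118 (0.50 ± 0.15, limma adjusted p = 0.0112) and set-4 rose in acf of series 111 (1.34 ± 0.18, edgeR adjusted p = 4.38e-05), whereas set-4 fell in acf of series 112 (-0.42 ± 0.11, edgeR adjusted p = 0.0111). The set-1 call was lost without WT replicate 3 (0.40 to 0.61 over single omissions).

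The remodelers had 3 members higher and 0 lower of 10 in isw (all genes 29.0% higher and 19.3% lower), and 2 higher and 0 lower in the triple mutant of series 118 (all genes 29.8% and 21.3%). In the triple mutant of series 112 they had 0 higher and 5 lower (all genes 28.6% and 26.3%). Their median log2 fold change was 0.28, 0.09 and -0.41 in these comparisons, beside 0.08, 0.05 and 0.00 for all genes. crf10-1, also known as clockswitch, rose most in isw: it stood at 6.10, 5.26 and 4.03 TPM in WT and 12.6, 10.1 and 10.1 TPM in isw, without overlap (log2 fold change 0.97 ± 0.17, limma adjusted p = 0.000134). It fell in acf of series 111, from 41.3, 52.6 and 43.2 CPM in WT to 17.6, 20.5 and 14.2 CPM (log2 fold change -1.39 ± 0.15, edgeR adjusted p = 7.22e-06). In libraries labelled set-7 it stood at 7.71, 9.12 and 9.42 CPM against 14.9, 12.6 and 12.7 CPM (-0.59 ± 0.16, edgeR adjusted p = 0.0227), all below WT. The last call was lost without WT replicate 1 or set-7 replicate 1 or 2 (-0.65 to -0.51 over single omissions) and when only WT and set-7 entered the fit. crf4-3 stood at 66.7, 54.5 and 49.9 TPM in WT and 75.6, 75.8 and 80.0 TPM in isw, above every WT library (log2 fold change 0.44 ± 0.11, limma adjusted p = 0.00322).

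crf4-3 was the 1 remodeler called in the same direction in acf of both count series. It fell from 169, 167 and 165 CPM to 109, 115 and 114 CPM in series 111 (log2 fold change -0.57 ± 0.09, edgeR adjusted p = 0.000105) and from 114, 126 and 113 CPM to 90.7, 108 and 93.1 CPM in series 112 (-0.27 ± 0.10, edgeR adjusted p = 0.0479). No acf library overlapped WT. The second call was lost without any of 4 of the 6 libraries, WT replicates 1 and 2 and acf replicates 1 and 3 (-0.35 to -0.22), with no filter on low counts and with only WT and acf in the fit. In set-7 crf4-3 stood at 89.9, 94.5 and 95.0 CPM (-0.33 ± 0.10, edgeR adjusted p = 0.0342) and crf9-1 at 46.8, 50.6 and 41.7 CPM against 61.3, 70.9 and 57.6 CPM in WT (-0.45 ± 0.14, edgeR adjusted p = 0.0449). Both lay below WT, and each call was lost without any of 5 of the 6 libraries, that is without any except WT replicate 3 (-0.37 to -0.28 for crf4-3 and -0.52 to -0.36 for crf9-1) and when only WT and set-7 entered the fit.

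crf7-1 and crf5-1 were lower in several mutants of the count series. crf7-1 stood at 64.0, 44.5 and 68.1 CPM in WT of series 111, 37.8, 33.5 and 30.7 CPM in iaf-1 and 16.6, 19.7 and 16.6 CPM in acf. The 3 groups did not overlap, and the log2 fold change was -0.79 ± 0.16 in iaf-1 (edgeR adjusted p = 0.00344) and -1.73 ± 0.17 in acf (edgeR adjusted p = 2.67e-06). crf5-1 stood at 20.6, 21.7 and 25.0 CPM in WT, 13.3, 16.2 and 14.5 CPM in iaf-1 and 15.3, 10.4 and 8.98 CPM in acf. Both mutants lay below WT, with log2 fold changes of -0.61 ± 0.20 (edgeR adjusted p = 0.0385) and -0.97 ± 0.21 (edgeR adjusted p = 0.00121). The iaf-1 call of crf5-1 was lost without any of 5 of the 6 libraries, that is without any except WT replicate 2 (-0.70 to -0.54), and with a replicate block, and both iaf-1 calls were lost with the nearly identical libraries summed. In the triple mutant of series 112 crf5-1 stood at 5.90, 6.14 and 6.53 CPM against 14.5, 15.2 and 12.2 CPM in WT (log2 fold change -1.18 ± 0.18, edgeR adjusted p = 5.11e-05), without overlap. In series 118 crf5-1 was called in no comparison with WT.

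Among the classical deacetylases, hda-1 was called in isw alone, where it stood at 35.3, 47.2 and 45.5 TPM against 50.9, 59.4 and 50.4 TPM in WT. All isw libraries lay below WT, with a log2 fold change of -0.33 ± 0.13 (limma adjusted p = 0.0491). The call was lost without any 1 of the 6 libraries except isw replicate 2 (-0.41 to -0.20) and with no filter on low values. hda-4 was lower in isw (-0.32 ± 0.10, limma adjusted p = 0.0162), a call lost without WT replicate 2 or isw replicate 1 (-0.36 to -0.23). hda-3 was lower in acf iaf-1 (-0.60 ± 0.15, limma adjusted p = 0.0055) and in acf of series 111 (-1.16 ± 0.17, edgeR adjusted p = 7.98e-05). hda-2 was called once, higher in iaf-1 iaf-2 (0.64 ± 0.17, limma adjusted p = 0.0136), and not without replicate 2 of that mutant (0.42) or with only WT and the mutant in the fit.

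Of the acetyltransferases, hat-1 gave the 1 call in iaf-2. It stood at 67.3, 71.4 and 66.2 CPM in WT of series 111, 51.1, 52.3 and 49.8 CPM in iaf-1, 47.8, 48.4 and 44.5 CPM in iaf-2 and 31.1, 32.5 and 24.5 CPM in acf. Every mutant library lay below WT, and acf lay below both iaf mutants. The log2 fold change was -0.42 ± 0.12 in iaf-1 (edgeR adjusted p = 0.0191), -0.54 ± 0.12 in iaf-2 (edgeR adjusted p = 0.00873) and -1.22 ± 0.12 in acf (edgeR adjusted p = 3.02e-06). The first 2 calls were lost with the nearly identical libraries summed, and the iaf-1 call also without iaf-1 replicate 1 or 3 (-0.46 to -0.38). hat-6 rose in isw from 7.59, 5.74 and 5.76 TPM to 9.97, 10.1 and 10.9 TPM (log2 fold change 0.63 ± 0.16, limma adjusted p = 0.00322) and in the triple mutant of series 118 to 8.88, 10.8 and 11.5 TPM (0.63 ± 0.16, limma adjusted p = 0.00306). Neither overlapped WT. hat-5 was higher in the triple mutant of both series, by 0.45 ± 0.12 in series 112 (edgeR adjusted p = 0.00645) and 0.32 ± 0.11 in series 118 (limma adjusted p = 0.0264) on the log2 scale. The second was lost without WT replicate 3 or mutant replicate 3 (0.22 to 0.38) and with only WT and the mutant in the fit.

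Both acf and the triple mutant were present in 2 library series, each with its own WT, which lets the same labelled genotype be compared across preparations. The column names of the acf libraries carry a pass label in series 111 that they lack in series 112. Whether both series used the same acf strain and passage is not stated, so a difference of strain and one of preparation cannot be told apart. For acf, 19 members were called in series 111 and 10 in series 112, and 7 in both. Of these 7, 3 had the same direction (crf4-3 and set-3 lower, nst-7 higher; 15.8% of the first list and 30% of the second, where over all genes the shares were 15.8% and 35.0%) and 4 the opposite direction (hat-6, hda-4, nst-1 and set-4, higher in series 111 and lower in series 112). Over all genes, 56.1% of the 1485 called in both series had the same direction. Of the 4, set-4 kept both calls in every single omission. In series 112 the calls of hat-6 (-0.72 to -0.45 over single omissions) and hda-4 (-0.55 to -0.32) were lost without WT replicate 1 or 2, acf replicate 1 and, in turn, acf replicate 2 for hat-6 and acf replicate 3 for hda-4. The nst-1 call there was lost without WT replicate 2 or any acf replicate (-0.55 to -0.31), and the hat-6 call of series 111 without acf replicate 2 or 3 (0.30 to 0.76), with the nearly identical libraries summed and with only WT and acf in the fit. A genotype by series interaction (edgeR, both count series) was called for 12 of 34 members, 4 with a higher and 8 with a lower effect in series 112, where 47.5% of all genes were called, 21.8% higher and 25.7% lower. This test was not repeated with the nearly identical libraries of series 111 summed, so its p-values may rest on too small a spread. Differences are effects in series 112 minus effects in series 111. The largest were -1.99 ± 0.31 for set-2 (adjusted p = 0.000201), -1.84 ± 0.24 for set-4 (adjusted p = 6.05e-05) and -1.46 ± 0.26 for hda-4 (adjusted p = 0.000654) on the log2 scale, and the largest in the other direction was 1.35 ± 0.26 for crf7-1 (adjusted p = 0.000965). The effect on nst-7 was 2.77 ± 0.20 in series 111 and 2.72 ± 0.16 in series 112, and its interaction was not called.

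The WT libraries of these 2 series also differed in the members' levels. The mean in series 111 over that in series 112 ran from 0.0816 for set-5 and 0.313 for set-6 to 4.90 for hda-2, and it was 3.41 for crf10-1 and 2.85 for set-2. Summed conidiation markers differed between WT and acf in series 111 and overlapped in series 112, as given above, and iaf-1 fell in acf of series 111 from 40.5 to 49.2 CPM in WT to 11.4 to 12.0 CPM. The part of any of these in the differing effects was not tested.

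For the triple mutant, 14 members were called in series 112 and 14 in series 118, and 8 in both (57.1% of each list). All 8 had the same direction in both series. Over all genes, calls shared in the same direction were 56.8% and 57.2% of the lists, and 91.4% of the 2985 genes called in both had the same direction. nst-7, set-5, nst-4 and hat-5 were higher, and set-9, set-6, nst-6 and set-8 were lower. Set beside isw of series 118, the triple mutant of series 112 shared 6 calls (42.9% and 37.5% of the lists), all in the same direction: nst-6, nst-7, set-5, set-6, set-8 and set-9. The same shares over all genes were 48.6% and 51.7%, with 85.3% of the genes called in both in the same direction. An interaction fitted with edgeR on counts of series 112 and whole reads recovered from the TPM of series 118 was called for 8 of 34 members (background 23.1%, 12.5% higher and 10.7% lower), all with a higher effect in series 118: crf3-1, crf4-3, crf5-1, crf7-1, hat-6, nst-2, nst-7 and set-1. Of the 8, 4 were remodelers. The difference was 0.89 ± 0.22 for crf5-1 (adjusted p = 0.00757), 0.85 ± 0.26 for nst-7 (adjusted p = 0.0295) and 0.71 ± 0.19 for set-1 (adjusted p = 0.0132) on the log2 scale, effect in series 118 minus effect in series 112. With a replicate block 3 of the members were called. The nst-7 call was lost without any of 6 of the 12 libraries, with the difference between 0.64 and 1.06 over single omissions: these were WT replicate 1 and mutant replicate 2 in series 112, and WT replicates 1 and 2 and mutant replicates 2 and 3 in series 118.

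**Figure D4:**
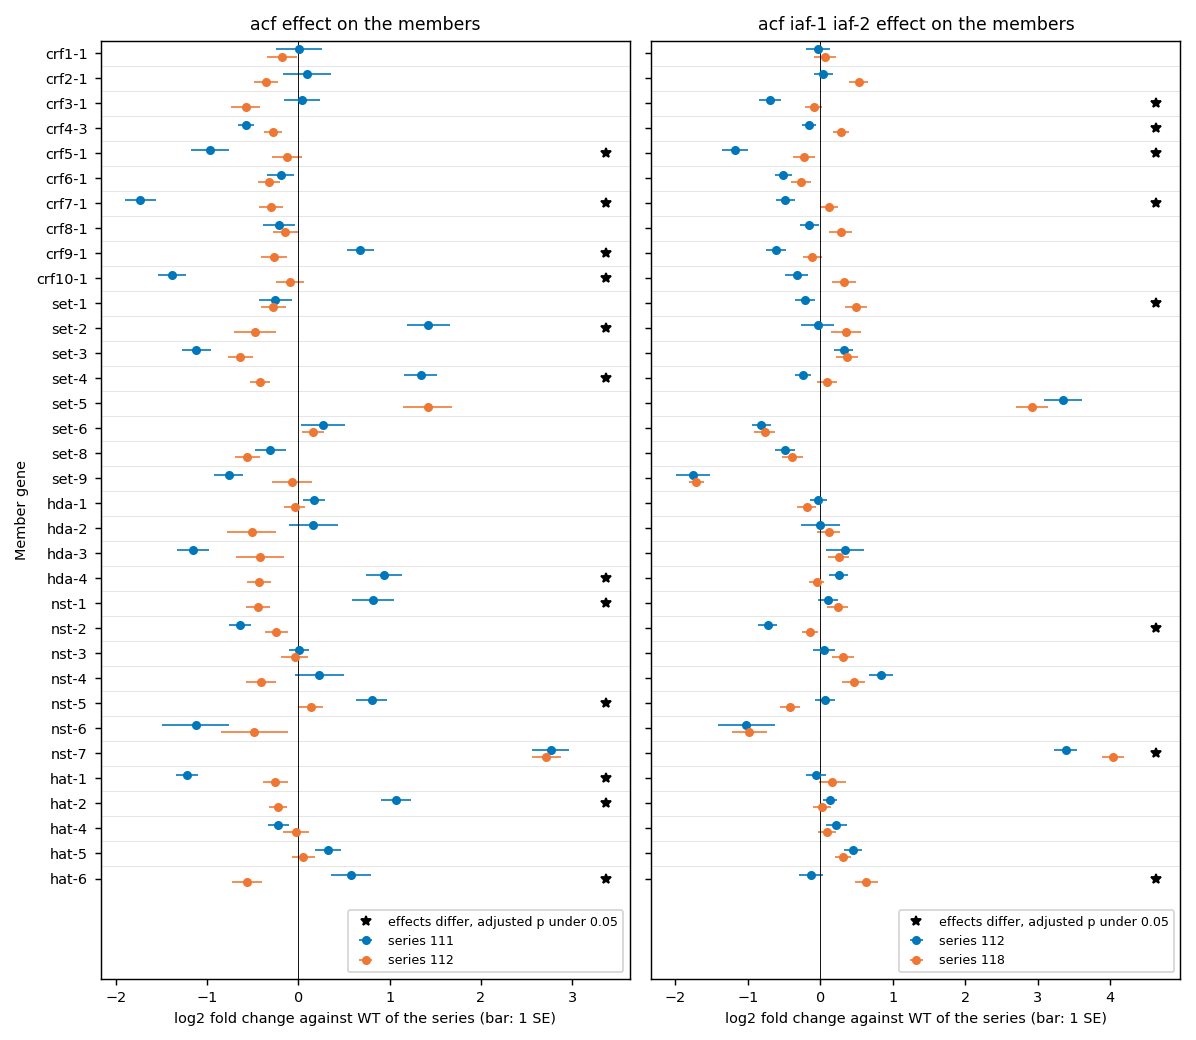
Points are log2 fold changes of the members against WT in each of 2 library series, with 1 SE as a bar, for acf on the left and for the triple mutant on the right, and stars mark members whose effect differed between series. Several acf effects lie on opposite sides of 0 in series 111 and 112, with nst-7 at 2.77 and 2.72. In the triple mutant set-9, set-6, nst-6, set-5 and nst-7 lie on the same side in both series.

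Mutants were also compared with one another within a series. Between the triple mutant and isw, 2 of 34 members were called (background 17.5%, 8.52% higher and 8.97% lower). crf10-1 was lower in the triple mutant, at 5.72, 6.88 and 7.29 TPM against 12.6, 10.1 and 10.1 TPM in isw (log2 difference -0.65 ± 0.17, limma adjusted p = 0.0159). set-5 was higher in it, by 0.70 ± 0.22 (limma adjusted p = 0.0348). With median-ratio scaling 4 members were higher and 1 lower (14.7%, all genes 20.4%). The set-5 call was lost without any of 5 of the 6 libraries, that is without any except isw replicate 3 (0.60 to 0.84), with a replicate block and with a pseudocount of 0.1, and the crf10-1 call without mutant replicate 1 or isw replicate 1 (-0.71 to -0.55). For nst-7 and set-9 the difference was not called, at 0.19 ± 0.15 and 0.03 ± 0.10 on the log2 scale, which does not show that they were alike.

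Against the double mutants, the triple mutant had 11 members higher and 2 lower than acf iaf-1 (background 39.4%, 24.5% higher and 14.9% lower), 6 higher and 3 lower than acf iaf-2 (background 34.6%, 16.1% higher and 18.4% lower) and 4 higher and 7 lower than iaf-1 iaf-2 (background 39.1%, 22.1% higher and 17.0% lower). With median-ratio scaling the split against acf iaf-2 was 12 higher and 2 lower. That was 41.2% of members, above the 36.1% of all genes, whereas the main fit lay below it at 26.5% (all genes 34.6%). With edgeR on recovered reads it was 44.1% (all genes 37.3%). nst-7 was higher in the triple mutant than in each double mutant, with log2 differences of 0.69 ± 0.15 (limma adjusted p = 0.00131), 0.85 ± 0.15 (limma adjusted p = 0.000264) and 2.78 ± 0.16 (limma adjusted p = 4.78e-10). set-9 was lower than in each, with differences of -0.77 ± 0.10, -1.29 ± 0.10 and -0.89 ± 0.11 (limma adjusted p = 1.19e-05, 2.51e-08 and 5.48e-06). In series 112 the triple mutant against acf had 11 members higher and 4 lower (background 48.2%, 25.0% higher and 23.2% lower). Among these set-5 was higher by 1.93 ± 0.22 (edgeR adjusted p = 4.87e-06), nst-4 by 1.25 ± 0.16 (edgeR adjusted p = 1.47e-05) and set-3 by 0.95 ± 0.14 (edgeR adjusted p = 4.64e-05), and set-9 fell by 1.69 ± 0.23 (edgeR adjusted p = 5.14e-05) on the log2 scale. Libraries labelled set-7 differed from acf in 3 members (background 19.0%, 7.43% higher and 11.6% lower), with set-6 higher by 2.13 ± 0.12 (edgeR adjusted p = 8.39e-09), set-5 lower and crf10-1 lower (log2 difference -0.50 ± 0.15, edgeR adjusted p = 0.0332). The crf10-1 call was lost without any of 5 of the 6 libraries, that is without any except set-7 replicate 3 (-0.56 to -0.43), and with a replicate block.

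The members most changed were set beside the genes next to them in the RefSeq order of assembly NC12, since reads of overlapping genes may be shared and the labels do not state the strand setting of the counting. NCU06120, next to set-5, was higher in every comparison with WT in series 112 and 118 except set-7. It stood at 55.8, 40.9 and 56.8 CPM in WT and 314, 305 and 326 CPM in the triple mutant of series 112 (log2 fold change 2.63 ± 0.17, edgeR adjusted p = 6.9e-09), so it moved in the same comparisons as set-5. NCU06118, on the other side of set-5, was lower in the triple mutant of both series (log2 fold change -1.14 ± 0.24 and -0.66 ± 0.22). NCU07625, next to nst-7, had 0 reads in every WT library of the 3 series, in set-7 and in iaf-1 iaf-2. It held 92, 96 and 143 reads in the isw libraries (mean 6.98 TPM). In series 118 it was also called higher in acf iaf-1 (4.81 TPM), acf iaf-2 (4.09 TPM) and the triple mutant (4.60 TPM). In series 112 it was called higher in acf (4.89 CPM) and the triple mutant (5.41 CPM). NCU07623, on the other side of nst-7, was higher in each of the 11 comparisons. Beside set-9, NCU08732 fell in isw (-0.96 ± 0.16, limma adjusted p = 0.000101) and in the triple mutant of series 118 (-0.87 ± 0.16, limma adjusted p = 0.000254), and NCU08734 rose in them (2.45 ± 0.17 in both). NCU09494, the neighbour of set-6, rose in isw (1.5 ± 0.20, limma adjusted p = 9.33e-06), where set-6 fell.

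Other chromatin genes gave a wider setting for the members. The list held 26 names of genes that work with such enzymes, heterochromatin, DNA methylation, chromatin assembly and Polycomb genes and histones, of which 21 were matched. The Polycomb names eed, suz12, npf and epr-1 and the name dim-3 were not matched, so the counts below hold none of these. In isw, 9 of 21 were higher and 0 lower, where 29.0% of all genes were higher and 19.3% lower (median log2 fold change 0.28, beside 0.08 for all genes). Among them was chap, a subunit of HCHC with HDA-1, with 1.16 on the log2 scale (limma adjusted p = 2.33e-05). hda-1 was among the lowered members, at -0.33, but that call was lost in 5 of 6 single omissions and with no filter on low values. In the triple mutant 8 were higher and 0 lower in series 118 (all genes 29.8% and 21.3%, median of the list 0.23), and 5 higher and 8 lower in series 112 (all genes 28.6% and 26.3%, median of the list -0.19). In acf of series 111, 0 were higher and 14 lower (all genes 31.6% and 34.4%, median of the list -0.49), with hpo, which encodes HP1, at -1.03 (edgeR adjusted p = 9.61e-06). In acf of series 112, 0 were higher and 1 lower (all genes 15.2% and 12.0%, median of the list -0.11), and in set-7 0 were higher and 1 lower (all genes 7.40% and 6.72%, median of the list -0.03).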

How the data were processed

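Per the labels' protocols, libraries came from total RNA through a TruSeq stranded kit for mRNA. Trimming with Trim Galore 0.4.4 (cutadapt 1.14, checked by FastQC), HISAT2 2.1.0, SAMtools 1.9 and Subread 1.6.2 (featureCounts) are listed in the submitters' processing notes, with no genome build, annotation or strand setting. The authors deposited raw read counts for series 111 and 112 but TPM for series 118. Counts were tested here with edgeR 4.0.16 (quasi-likelihood, TMM, filterByExpr, robust). TPM were tested with limma 3.58.1 (trend, robust) on log2(TPM + 1), which understates changes of low genes, after keeping genes that reached 1 TPM in 2 or more libraries. All groups of a series, taken from the labels, entered each fit in R 4.3.3. TPM steps gave back whole reads, within 0.001, for 10396 genes (99.99%). These gave the depths of series 118, an alternative edgeR test and the test of the triple mutant between series.

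Values in every library were given for the 6 highest and 6 lowest members called in isw, for those called alike in both triple mutants at 1.5-fold or more, for those called in set-7, iaf-1 or iaf-2 or alike in both acf comparisons, and for the 3 highest and 3 lowest in WT. Some further members were named beside them. Members and lists were chosen with earlier results of these data known. RefSeq NC12 matched 10363 of 10397 rows and was used for names and gene order only. Both fits were tested on simulated data. Alternatives were other scalings, no filter, a pseudocount of 0.1, a replicate block, DESeq2 1.42.0, fewer groups, summed near-identical libraries and leaving out each library.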

Additional observations from a re-analysis of the deposited data

Results flagged for a closer look

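The effect of acf on 12 members was called different between series 111 and 112 by a test of the difference itself (edgeR interaction, adjusted p under 0.05 over all genes). Over all genes 47.5% were called. The nearly identical libraries of series 111 entered this test as separate replicates, and it was not repeated with them summed. As effect in series 112 minus effect in series 111 on the log2 scale, it was 1.20 for crf10-1, 0.75 for crf5-1, 1.35 for crf7-1, 0.87 for hat-1, -1.04 for crf9-1, -1.38 for hat-2, -1.22 for hat-6, -1.46 for hda-4, -1.345 for nst-1, -0.77 for nst-5, -1.99 for set-2 and -1.84 for set-4. The calls of nst-5 and crf5-1 were lost without some single libraries (-0.98 to -0.54 and 0.66 to 1.00), and that of crf5-1 also with a replicate block.

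The effect of the triple deletion on 8 members differed between series 112 and 118 by the same kind of test. As effect in series 118 minus effect in series 112, it was 0.56 for crf3-1, 0.42 for crf4-3, 0.89 for crf5-1, 0.57 for crf7-1, 0.805 for hat-6, 0.55 for nst-2, 0.85 for nst-7 and 0.71 for set-1. The crf5-1 and set-1 calls held in every single omission, and the other 6 did not. With a replicate block the calls of crf3-1, crf4-3, crf7-1, hat-6 and nst-2 were lost, and that of crf4-3 also with median-ratio size factors and with no filter on low counts.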

How the results depend on the processing

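The count of members called stayed within 1.5 times its value except as follows and, for the triple mutant between series, with a replicate block (given last). In iaf-2 it was 4 with DESeq2, and with the nearly identical libraries summed it was 0 in iaf-1 and 0 in iaf-2 (476 and 4 of all genes, against 2299 and 1564). With only the compared groups it was 2 in set-7, 5 in set-7 against acf and 5 in the triple mutant against iaf-1 iaf-2, and all-gene counts fell from 1235 to 447 in set-7 and from 1564 to 792 in iaf-2. Between the triple mutant and isw it was 1 with a pseudocount of 0.1, 5 with median-ratio scaling and 5 with edgeR on recovered reads. Against acf iaf-2 the triple mutant had 14 with median-ratio scaling and 15 with edgeR on recovered reads (all genes 36.1% and 37.3%). With the latter, acf iaf-2 against WT had 8 (all genes 28.2%). edgeR on recovered reads and the comparisons between series 118 mutants were chosen after seeing the data. No call of a named member reversed. The cause of these shifts was not tested.

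Leaving out 1 library gave 17 to 25 members called in acf of series 111, 3 to 14 in iaf-1, 1 to 8 in iaf-2, 2 to 11 in set-7, 5 to 13 in acf of series 112, 13 to 15 in the triple mutant of series 112, 12 to 16 in it against acf, 2 to 4 in set-7 against acf, 11 to 18 in isw, 6 to 9 in acf iaf-1, 3 to 4 in acf iaf-2, 5 to 10 in iaf-1 iaf-2 and 9 to 14 in the triple mutant of series 118. Against the other mutants of series 118, the triple mutant had 10 to 14 (acf iaf-1), 4 to 8 (acf iaf-2), 7 to 14 (iaf-1 iaf-2) and 0 to 2 (isw). The test between series gave 11 to 15 for acf and 3 to 7 for the triple mutant. The highest counts in series 111 came without WT replicate 2, where the shares over all genes were higher too. These were 68.9% in acf (members 73.5%), 40.2% in iaf-1 (members 41.2%) and 34.2% in iaf-2 (members 23.5%). In the main fits they were 66.0%, 28.8% and 19.6%. Without WT replicate 2, WT of series 111 held only replicates 1 and 3, its nearly identical pair (chi-square per degree of freedom 1.84). The spread within WT may then be too small, and the part of this in the higher counts was not tested.

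Replicate numbers did not pair the libraries (correlation of deviations -0.41 to 0.37). With a replicate block 19 members were called in acf of series 111 and 16 in isw, and 3 rather than 8 in the triple mutant between series. Low depth limits nst-6, and set-5 in series 111, where some libraries held 5 reads or fewer.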
